A study of Rattus norvegicus with 6 samples.

Results

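The erythroid miRNAs miR-451, miR-144 and miR-486 were read in 6 small RNA libraries of the rat Schwann cell line RSC96, treated for 48 h. Of these, 3 libraries came from cells in high glucose and 3 from the low glucose controls, and the labels give no glucose concentration. The series title concerns exosomes, small vesicles that cells release. The labels do not say whether vesicles or whole cells were sequenced, and their extraction text names retina rather than a cell line. RSC96 is a single established line. The labels do not tell whether replicates were separate cultures. The members were the lines whose hairpin name was rno-mir-451, rno-mir-144 or rno-mir-486. They made up 3 of 821 hairpins, 35 of 9522 distinct sequences and 5 of 932 mature arms, where an arm is the 5p or 3p side of a hairpin. They held 860, 1168 and 931 counts in the high glucose libraries, of 963706, 1278405 and 1354456 in all. In the low glucose libraries they held 536, 485 and 714 of 123716, 148143 and 114615 counts.

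A miRNA is a short RNA that guides an Argonaute protein to messenger RNAs, which it recognises mainly through its seed, bases 2 to 8. miR-144 and miR-451 come from neighbouring hairpins of a single transcript, which GATA1 switches on in red cell precursors. The miR-451 hairpin is too short for Dicer, the enzyme that releases most miRNAs. AGO2 itself cuts the 3′ side of that hairpin, and the cut fragment is then trimmed back from its 3′ end, so that miR-451 reaches from the 5′ side into the loop. miR-486 lies within the ankyrin gene ANK1 and is made in red cells and in muscle.

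In RefSeq (GRCr8) Mir144 and Mir451a stand next to each other on the plus strand of chromosome 10 with 0 genes starting between them. The deposited hairpins of miR-451 and miR-144 were the same as the RefSeq ones. The hairpins are shown as deposited, 5′ to 3′, with the sequence counted most often in capitals, because the place of that sequence differs between the 3.
miR-451 hairpin: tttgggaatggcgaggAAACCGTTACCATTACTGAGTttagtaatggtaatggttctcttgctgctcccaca
miR-144 hairpin: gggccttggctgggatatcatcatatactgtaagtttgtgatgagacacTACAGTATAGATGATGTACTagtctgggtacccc
miR-486 hairpin: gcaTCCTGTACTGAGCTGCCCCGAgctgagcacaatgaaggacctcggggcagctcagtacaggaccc
The RefSeq mature sequences of miR-451 and miR-144 follow with the seed in capitals.
rno-miR-451-5p: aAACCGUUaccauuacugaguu
rno-miR-451-3p: aUGGUAAUgguucucuugcugcu
rno-miR-144-5p: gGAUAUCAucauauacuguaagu
rno-miR-144-3p: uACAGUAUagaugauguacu
The main sequence of miR-486-5p, with its seed in capitals, was tCCTGTACtgagctgccccga. The members share no seed with each other. Of 724 mature rat miRNAs in the RefSeq table, only miR-451-5p itself has the seed of miR-451-5p, and only miR-144-3p has that of miR-144-3p.

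miR-451-5p, the member with the most even raw counts, was lower under high glucose once counts were scaled to library size. Its raw counts were 357, 374 and 333 in the high glucose libraries and 320, 288 and 440 in the low glucose libraries, so that the groups overlapped. Scaled by edgeR's TMM method to CPM, counts relative to library size, it stood at 370, 305 and 272 CPM under high glucose and at 2228, 1930 and 3941 CPM under low glucose. Every high glucose library then lay below every low glucose library. The group means were 316 ± 49.4 CPM under high glucose and 2700 ± 1085 CPM under low glucose (SD, n = 3 each). The fitted log2 fold change was -3.09 (SE 0.31, edgeR quasi-likelihood test, Benjamini-Hochberg adjusted p = 0.000126), or 8.53-fold lower under high glucose. CPM are relative to library size, so less of a miRNA and more of the other RNAs cannot be told apart. Nor, in bulk RNA, can fewer cells that hold a miRNA and less of it per cell.

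miR-486-5p was also lower in scaled counts, by less. It had 501, 790 and 582 raw counts under high glucose and 212, 193 and 266 under low glucose, all high glucose libraries being above. In scaled counts the order turned round, with 519, 645 and 476 CPM under high glucose and 1476, 1293 and 2383 CPM under low glucose. The means were 547 ± 87.9 CPM under high glucose and 1717 ± 583 CPM under low glucose (SD, n = 3 each). The log2 fold change was -1.65 (SE 0.27, edgeR adjusted p = 0.0013), or 3.13-fold lower.

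Both arms of the members that had enough counts to be tested were thus called lower, while 63.6% of the 297 tested arms were called, 22.6% lower and 41.1% higher. Both also had separate groups in CPM, with high glucose below, as had 25.9% of the tested arms. The other 3 arms were not tested for lack of counts. Over all tested arms the median was 0.68 on the same scale. With every library thinned to 114497 reads, it was 0.10 over the 169 arms then tested. Among the 297 tested arms miR-451-5p ranked 11 by the size of its fall and miR-486-5p ranked 29.

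**Figure D1:**
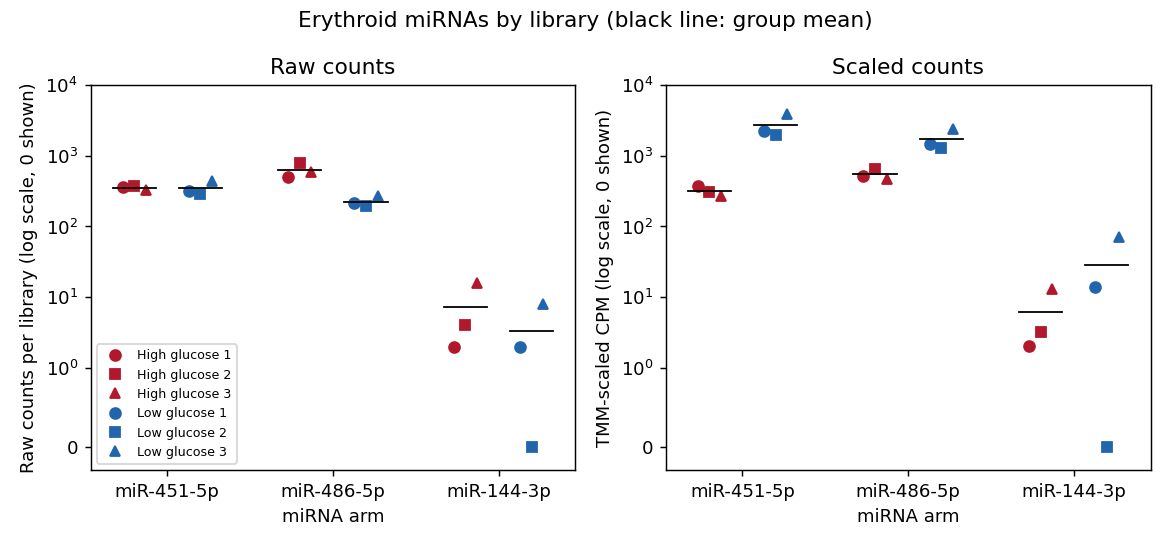
Counts of miR-451-5p, miR-486-5p and miR-144-3p in each library, as raw counts on the left and TMM-scaled CPM on the right, on log axes with 0 shown. High glucose libraries are red and stand left of the blue low glucose libraries, and black lines are group means (n = 3). Raw counts of miR-451-5p overlap between the groups, while in CPM the high glucose libraries lie at 272 to 370 and the low glucose libraries at 1930 to 3941.

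The scaled falls stand beside total counts that were 9.31-fold higher under high glucose by group mean. Total counts and glucose group separate the libraries in the same way and cannot be told apart. In 90.6% of the tested arms, miR-486-5p among them, all high glucose libraries had more raw counts than all low glucose libraries. The raw means of miR-451-5p were 355 under high and 349 under low glucose, a ratio of 1.02, and those of miR-486-5p were 624 and 224, a ratio of 2.79. The median of this ratio over all tested arms was 11.8. Only 11 of the 297 arms, miR-451-5p included, had a ratio as low as that of miR-451-5p, and 32 one as low as that of miR-486-5p. When every library was thinned to 114497 reads, miR-451-5p averaged 38.5, 32.3 and 25.3 counts in the high glucose libraries and 297, 222 and 440 in the low glucose libraries over 20 draws. miR-486-5p then averaged 55.9, 65.2 and 48.6 counts under high glucose and 194, 149 and 266 under low glucose.

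**Figure D2:**
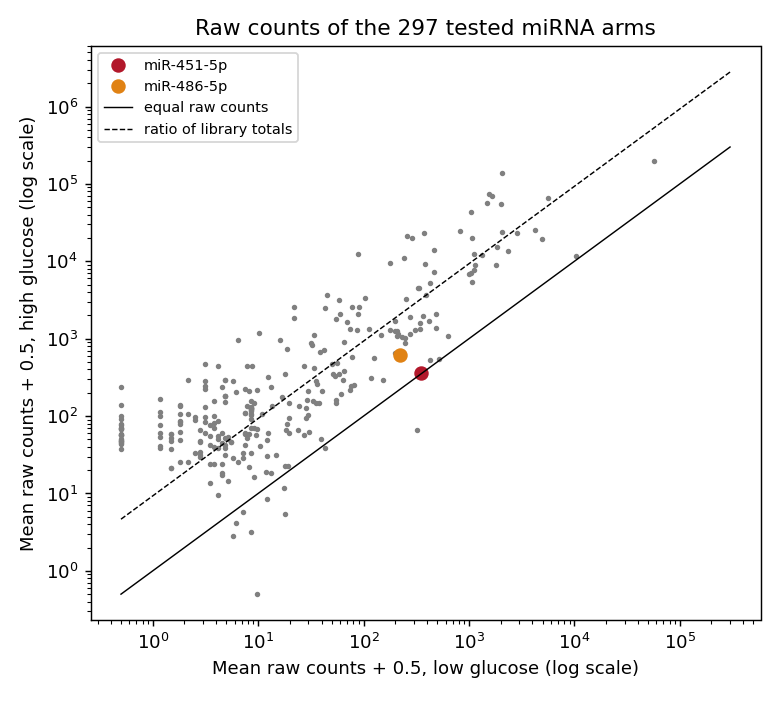
Mean raw counts of the 297 tested arms, with low glucose on the x axis and high glucose on the y axis, both as counts + 0.5 on log scales. The solid line marks equal raw counts and the dashed line the 9.31-fold ratio of library totals. miR-451-5p lies on the solid line and miR-486-5p, at 624 against 224 counts, between both lines.

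The ratio of miR-451-5p to miR-486-5p within a library does not depend on the scaling. It was 0.713, 0.473 and 0.572 in the high glucose libraries, against 1.51, 1.49 and 1.65 in the low glucose libraries. miR-486-5p was the more counted of the pair in each high glucose library, and miR-451-5p in each low glucose library. The log2 ratio differed by -1.42 between high and low glucose, a 2.68-fold lower ratio under high glucose. An exact two-sided permutation test gave p = 0.1, the smallest that 3 against 3 libraries allow.

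miR-144, which shares its transcript with miR-451, was near the limit of detection. miR-144-3p, its usual guide arm, had 2, 4 and 16 counts under high glucose and 2, 0 and 8 under low glucose. The groups overlapped, and the third library of each group held most of its counts. Summed, these were 22 counts of 3596567 under high glucose and 10 of 386474 under low glucose, or 6.12 and 25.9 CPM of the total counts. The summed rate was 4.23-fold lower under high glucose, with an exact 95% binomial interval of 1.79 to 9.31 that covers counting error only. Without low glucose replicate 3 it was 1.20-fold lower, with an interval of 0.137 to 4.89, so the size of this fold rests on that library. Without high glucose replicate 3 it was 9.67-fold lower and without low glucose replicate 2 it was 6.86-fold lower. Its main sequence was the RefSeq mature one, and a form without the last base had 3 counts in low glucose replicate 3. miR-144-5p was listed with 2 counts, in low glucose replicate 2 alone, as tGGGATATcatcatatactgta with the seed in capitals. This sequence starts at hairpin position 11, and the RefSeq arm starts at 13, so the seeds differ. miR-486-3p had 2 counts in each of low glucose replicates 1 and 2, and the arm was listed in no high glucose library. Sequences read once are not listed in these files, so a listed 0 sets no upper limit.

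Most miR-451-5p sequences ended in the loop, which the fold predicted by ViennaRNA places at hairpin positions 35 to 38. Of 13 distinct sequences the most abundant was 21 nt long, from hairpin position 17 to 37, which is 1 base shorter than the RefSeq arm of 22 nt. It had 326, 343 and 296 counts under high glucose and 287, 260 and 394 under low glucose. These made up 90.6% ± 1.53 of the miR-451-5p counts under high glucose and 89.8% ± 0.388 under low glucose (SD, n = 3 each), and the groups overlapped. Among 152 annotated arms with 100 or more counts and a RefSeq entry, the main sequence was the RefSeq one in 65 and 1 base shorter at the 3′ end in 22, miR-451-5p among them.

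The length forms of miR-451-5p are printed to show how they extend into the loop, with the last base in capitals.
20 nt: aaaccgttaccattactgaG
21 nt: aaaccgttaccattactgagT
22 nt: aaaccgttaccattactgagtT
23 nt: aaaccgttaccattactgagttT
Because the hairpin continues with T at positions 38 and 39, a U added after transcription at these places cannot be told from the hairpin's own base. The 22 nt form, equal to the RefSeq sequence, had 11, 11 and 10 counts under high glucose and 5, 6 and 9 under low glucose. Its length class was 3.08%, 2.94% and 3.00% of the counts in the high glucose libraries, against 1.56%, 2.08% and 2.05% in the low glucose libraries. These groups were separate (exact two-sided permutation test p = 0.1, adjusted p = 0.367 over 11 end measures). The 23 nt form was listed in 1 high glucose and 2 low glucose libraries, with 10 counts in all.

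No miR-451 sequence over 23 nt was listed in any library, although the files hold sequences of up to 40 nt. In the predicted fold, the base across from base 11 of miR-451 is at position 46, so that a cut there by AGO2 would leave a fragment of 30 nt. Such fragments, and trimming steps of 24 nt or more, were thus listed at 0 in all 6 libraries. As sequences read once are not listed, these zeros set no upper limit. miR-451-3p, which RefSeq places at hairpin positions 44 to 66, also had 0 counts. The mean 3′ end differed by 0.0102 positions between the groups, which overlapped (exact permutation p = 0.6, adjusted p = 0.825).

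**Figure D3:**
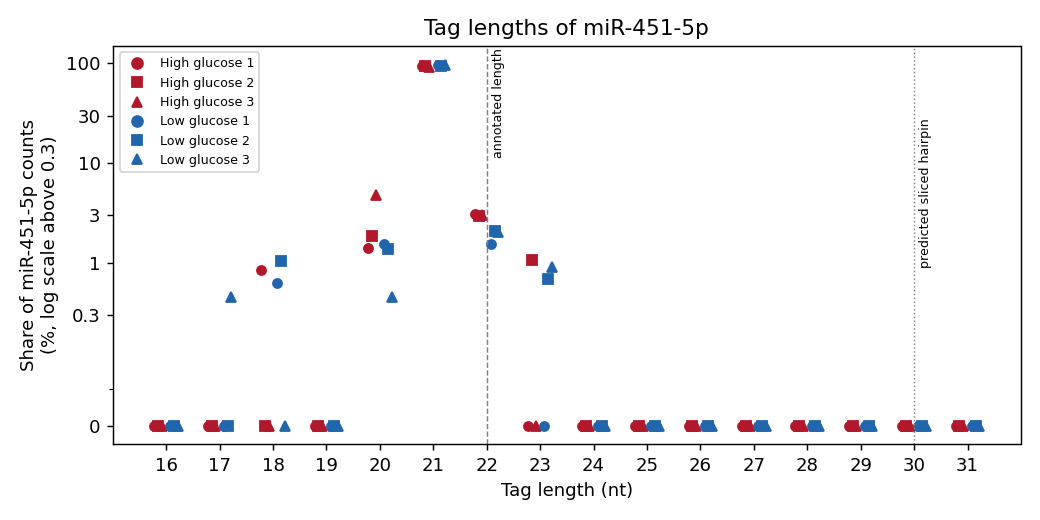
Share of miR-451-5p counts by sequence length in nt for each library, high glucose in red and low glucose in blue, on a log axis above 0.3% with 0 shown. The dashed line marks the RefSeq length of 22 nt and the dotted line the 30 nt fragment of the predicted AGO2 cut. Between 92.2% and 96.3% of counts are 21 nt long in every library, and 0 are longer than 23 nt.

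The 5′ end of miR-451-5p, which sets its seed, was nearly uniform. In high glucose 98.6% ± 1.17 of the counts started at position 17, and under low glucose 99.5% ± 0.465 (SD, n = 3 each). The groups overlapped (exact permutation p = 0.5, adjusted p = 0.786). A form that starts 1 base later, aACCGTTAccattactgagt with its changed seed in capitals, had 3, 2 and 9 counts under high glucose and 2, 0 and 2 under low glucose.

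Mismatched miR-451-5p sequences took a smaller share of the counts under high glucose. They made up 3.36%, 2.41% and 3.30% in the high glucose libraries, against 6.56%, 4.51% and 6.59% in the low glucose libraries, and the groups were separate (exact permutation p = 0.1, adjusted p = 0.367). Most of them carried C as the last base, written T21C with positions counted from the 5′ end of the sequence and the hairpin's base first.
T21C form: aaaccgttaccattactgagC
It had 7, 9 and 7 counts under high glucose and 17, 9 and 26 under low glucose. As a share this was 2.16% ± 0.228 of miR-451-5p counts under high glucose and 4.78% ± 1.47 under low glucose (SD, n = 3 each). The counting error is wide, for instance 0.953% to 3.99% in high glucose replicate 1 and 3.34% to 8.34% in low glucose replicate 1 (95% Wilson intervals, counting error only). Over all other annotated arms joined, sequences with a mismatched last base read as C took 2.72% ± 0.25 of counts under high glucose and 1.89% ± 0.198 under low glucose. The share over the joined arms weighs each arm by its counts. Raw counts of miR-451-5p were similar in both groups. With sequences of 5 or more reads alone, its mismatched share differed by -2.74 percentage points (high minus low glucose), against -2.87 with all. The effect of the minimum of 2 reads per sequence itself on its rare forms was not tested.

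miR-486-5p had more 3′ end positions than miR-451-5p, 8 against 5, among 18 distinct sequences against 13. It also had more counts in all, 2544 against 2112. Its ends at hairpin positions 19, 21, 22 and 27 were each listed in 1 high glucose library alone. All but 2 counts, in high glucose replicate 3, started at hairpin position 4. The forms below carried most of the counts and are shown with the last base in capitals, because they differ there.
21 nt: tcctgtactgagctgccccgA
22 nt: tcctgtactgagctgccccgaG
23 nt, C23T: tcctgtactgagctgccccgagT
23 nt, C23A: tcctgtactgagctgccccgagA
23 nt, exact: tcctgtactgagctgccccgagC
The hairpin has C after the 22 nt form, so a last base of T (U in the RNA) or A does not come from the hairpin as deposited. The exact 23 nt form had 4, 8 and 5 counts under high glucose and 0, 0 and 2 under low glucose. Mismatched sequences as a whole were 39.0% ± 2.25 of miR-486-5p under high glucose and 37.3% ± 1.60 under low glucose (SD, n = 3 each), and the groups overlapped (exact permutation p = 0.4, adjusted p = 0.733).

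The groups differed in which base ended the 23 nt form. The U-ended form C23T had 96, 167 and 111 counts under high glucose and 15, 17 and 10 under low glucose. It made up 19.2%, 21.1% and 19.1% of miR-486-5p in the high glucose libraries, against 7.08%, 8.81% and 3.76% in the low glucose libraries. The A-ended form C23A went the other way, with 82, 106 and 82 counts under high glucose and 58, 50 and 77 under low glucose. Its shares were 16.4%, 13.4% and 14.1% under high glucose and 27.4%, 25.9% and 28.9% under low glucose. Both forms had separate groups. The 95% Wilson intervals of single libraries did not meet between the groups for C23T, at 15.96% to 22.8% in high glucose replicate 1 and 5.57% to 13.7% in low glucose replicate 2. For C23A they also stayed apart, at 13.4% to 19.9% in high glucose replicate 1 and 20.2% to 32.5% in low glucose replicate 2. The intervals cover counting error only, not the spread between libraries. These shares were picked after their values were seen and carry no test.

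Together the U-ended and A-ended forms took a near-equal share, 34.4% ± 1.19 under high glucose and 34.0% ± 1.09 under low glucose (SD, n = 3 each). The log2 ratio of U-ended to A-ended counts was 0.44 ± 0.21 under high glucose and -2.15 ± 0.72 under low glucose (SD, n = 3 each), a difference of 2.59. In other annotated arms the ratio was taken over mismatched last bases at any length, and for miR-486-5p at 23 nt alone. In 27 such arms, with 5 or more counts of each kind in every library, the difference ran from -1.68 to 1.67. Its median was 0.06. Of these 27 arms, 7 had all high glucose libraries above the low glucose ones and 6 had all below. All other annotated arms were also joined. A mismatched last base read as T then took 3.39% ± 0.154 of counts under high glucose and 2.53% ± 0.129 under low glucose. One read as A took 3.78% ± 0.385 and 3.59% ± 0.209 in the same groups. Joined shares weigh each arm by its counts, and the groups differed in which arms were abundant. For instance, miR-21-5p averaged 173413 CPM under high glucose and 420793 CPM under low glucose.

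**Figure D4:**
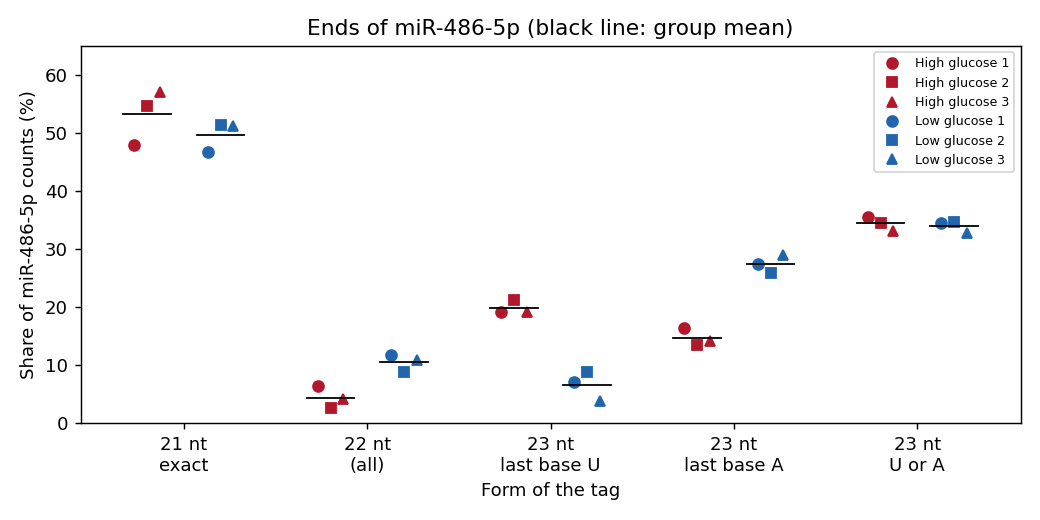
Share of miR-486-5p counts in each form of the 3′ end, in percent, for each library, high glucose in red on the left and low glucose in blue on the right, with group means as black lines (n = 3). The U-ended 23 nt form lies at 19.1% to 21.1% under high and 3.76% to 8.81% under low glucose, the A-ended form at 13.4% to 16.4% under high and 25.9% to 28.9% under low glucose, and their sum overlaps.

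The exact 21 nt form of miR-486-5p had 240, 432 and 332 counts under high glucose and 99, 99 and 136 under low glucose, or 53.2% ± 4.74 and 49.7% ± 2.61 of the arm (SD, n = 3 each), and the groups overlapped. Sequences of 22 nt were 4.39% ± 1.88 of the arm under high glucose and 10.5% ± 1.53 under low glucose (SD, n = 3 each), with separate groups (exact permutation p = 0.1, adjusted p = 0.367). The form A21T was listed in 2 high glucose libraries, with 17 and 15 counts, and at 0 in the other 4 libraries. A form with a second U, tcctgtactgagctgccccgagtT, had 15 counts in high glucose replicate 3 and 0 elsewhere. The sides of the miR-486 hairpin mirror each other, and 7 of its 19 sequences occur in it also as their reverse complement. A single member sequence was shared with another hairpin, the predicted one numbered 15278 on chromosome 16, with 2 counts there in high glucose replicate 3.

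Other miRNAs that red cells hold, from a list of 15, moved both ways. Of 12 tested, 2 were higher and 5 lower under high glucose, and 5 did not pass, beside 41.1% higher and 22.6% lower of all 297 tested arms. Their median log2 fold change was -0.73, beside 0.68 for all tested arms. The median of all arms tested on thinned counts was 0.10, and that of the list was not taken there. On thinned counts 2 of the 9 listed miRNAs then tested were higher and 4 lower, beside 68 and 56 of all 169 tested arms. With upper quartile scaling 1 was higher and 8 lower, beside 91 and 93 of all tested arms. The 4 with the highest mean CPM over the 6 libraries were miR-22-3p, miR-25-3p, miR-185-5p and miR-20a-5p. miR-20a-5p, of the growth-linked miR-17 to miR-92 cluster, stood at 264 ± 47.7 CPM under high glucose and 1117 ± 227 CPM under low glucose (SD, n = 3 each), and thus fell, at -2.08 on the log2 scale (edgeR adjusted p = 0.000269). miR-25-3p rose by 0.71 on the log2 scale (edgeR adjusted p = 0.0107), but by upper quartile scaling its value was 0.13 (edgeR adjusted p = 0.574). The values of miR-22-3p and miR-185-5p were -0.26 and -0.17 (edgeR adjusted p = 0.213 and 0.432). By upper quartile scaling both were called lower, at -0.86 and -0.76 (edgeR adjusted p = 0.00906 and 0.00457). The remaining called members are named with their values already seen. miR-92a-3p was the other higher one, at 1.97 (edgeR adjusted p = 0.000348). The other lower ones were miR-19b-3p at -3.17, miR-15b-5p at -2.30, miR-16-5p at -1.58 and miR-106b-5p at -1.52, with edgeR adjusted p of 0.000648 to 0.0066. Without low glucose replicate 2, miR-106b-5p stood at -1.21 (edgeR adjusted p = 0.0594). Summed over the list, the level was 12548 to 15493 CPM under high glucose and 13346 to 15119 CPM under low glucose, so the groups overlapped. Most of this sum was miR-22-3p and miR-25-3p. They averaged 6797 and 3985 CPM under high glucose, and 8111 and 2444 CPM under low glucose.

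Lists for other cell types were measured beside the members, and their part in the results was not tested. Of 7 striated muscle miRNAs, which bear on miR-486, 5 were listed and 1 was tested. This was miR-499-5p, encoded in a myosin gene, which fell by 1.25 on the log2 scale (edgeR adjusted p = 0.0198). Without low glucose replicate 2 it stood at -0.63 (edgeR adjusted p = 0.213), without high glucose replicate 2 at -1.17 (edgeR adjusted p = 0.051), and with the replicate block at -1.18 (edgeR adjusted p = 0.0691). The other 4 were listed under high glucose alone and at 0 in every low glucose library. With fewer total counts in the low glucose libraries and a minimum of 2 reads per sequence, a listed 0 there sets no upper limit. miR-1-3p had 0, 10 and 12 counts in the high glucose libraries, miR-206-3p 0, 59 and 3, miR-208a-3p 0, 5 and 2, and miR-208b-3p 0, 0 and 5. The muscle list summed to 92.1 to 131 CPM under high glucose and 134 to 328 CPM under low glucose, and miR-133a-3p and miR-133b-3p were listed at 0 in all 6 libraries. Of 5 leukocyte and platelet miRNAs 4 were listed, the 3 tested had edgeR adjusted p of 0.435 to 0.654, and miR-142-3p was listed at 0 throughout. That list summed to 40.1 to 239 CPM under high glucose and 90.5 to 143 CPM under low glucose. In the liver list of 3, the 2 tested entries moved against the members. miR-192-5p rose by 1.69 and miR-122-5p by 1.80 on the log2 scale (edgeR adjusted p = 0.00135 and 0.000654). The third entry, miR-194-5p, had too few counts to be tested, with 6, 4 and 0 under high glucose and 0, 0 and 4 under low glucose. It averaged 3.16 CPM under high glucose and 11.9 CPM under low glucose, and the groups overlapped. The list summed to 9192 to 15576 CPM under high glucose and 3197 to 4693 CPM under low glucose. Of 4 miRNAs linked to Schwann cells or broadly expressed, miR-21-5p, miR-221-3p and miR-222-3p were listed and tested, and miR-338-3p was at 0. miR-21-5p fell by 1.28 on the log2 scale (edgeR adjusted p = 0.000956). miR-222-3p rose by 3.05 (edgeR adjusted p = 2.73e-05), and miR-221-3p rose by 0.91 (edgeR adjusted p = 0.00201) but stood at 0.32 by upper quartile scaling (edgeR adjusted p = 0.0978). This list, most of it miR-21-5p, summed to 153782 to 219645 CPM under high glucose and 367177 to 459472 CPM under low glucose. The neuronal list of 3 summed to 15737 to 21902 CPM under high glucose and 2795 to 4684 CPM under low glucose, with miR-124-3p at 0. Of this list miR-128-3p rose by 3.20 on the log2 scale (edgeR adjusted p = 0.0002), while miR-9a-5p averaged 1505 CPM under high glucose and 1476 CPM under low glucose, at 0.03 (edgeR adjusted p = 0.878). By upper quartile scaling miR-9a-5p was called lower, at -0.56 (edgeR adjusted p = 0.0159). Both arms of the endothelial miR-126a summed to 46.6 to 67.0 CPM under high glucose and 0 to 101 CPM under low glucose.

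The arms most like miR-451-5p were sought among the tested ones, by Pearson's r of log2 CPM over the 6 libraries. The closest were miR-22-5p (r = 0.998), the predicted hairpin numbered 34122 on chromosome 7 (r = 0.990), that numbered 11530 on chromosome 13 (r = 0.985), miR-184-3p (r = 0.985) and miR-181b-5p (r = 0.983). miR-486-5p ranked 8 of 296 with r = 0.980. These values mainly restate the step between the groups, since all points share the same 6 libraries. By the ratio of raw means, among 67 arms averaging at least 100 counts in each group, the nearest to miR-451-5p was miR-184-3p, at 540 counts under high and 516 under low glucose, a ratio of 1.05. Next came the predicted hairpin numbered 34122 at 1.13, that numbered 27712 on chromosome 4 at 1.23, miR-218a-5p at 1.71 and miR-20a-5p at 1.95.

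Among the low glucose libraries, replicate 3 held the most miR-451-5p, miR-486-5p and miR-144-3p, both in raw counts and in CPM. Without it the log2 fold change was -2.75 for miR-451-5p and -1.38 for miR-486-5p (edgeR adjusted p = 4.86e-05 and 0.00111). Both arms stayed lower with high glucose in each of the 15 other settings that were tried, from -3.65 to -2.75 for miR-451-5p and from -2.20 to -1.38 for miR-486-5p. The ends of these ranges came from upper quartile scaling and from the fit without low glucose replicate 3.

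**Figure D5:**
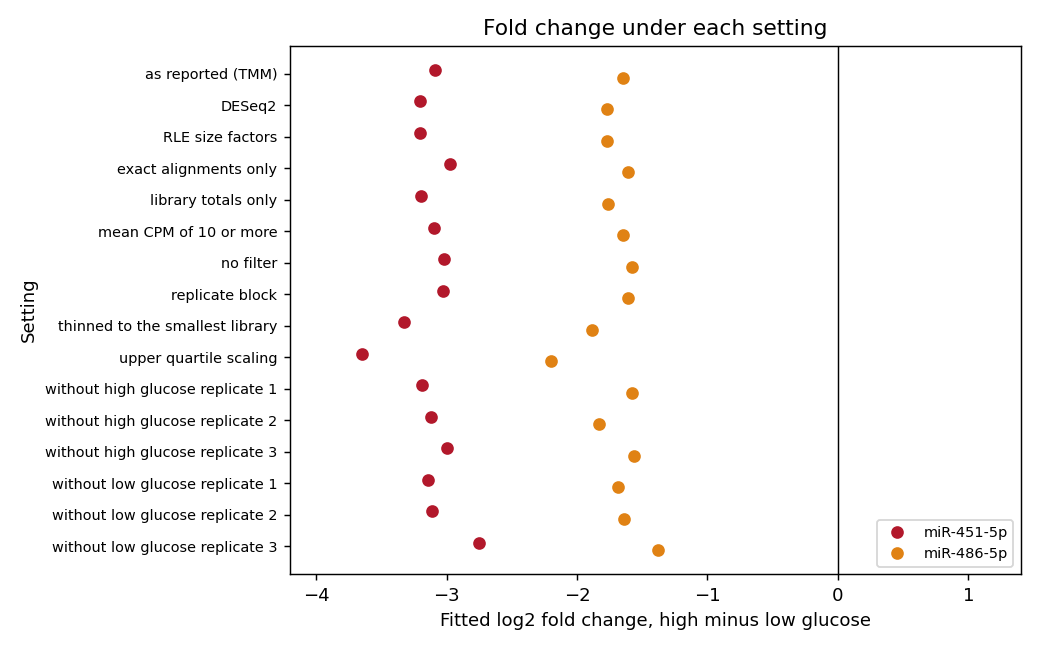
Fitted log2 fold change of miR-451-5p in red and miR-486-5p in orange, high minus low glucose, for the reported fit and the 15 other settings listed on the y axis. All points lie left of 0, with miR-451-5p between -3.65 and -2.75 and miR-486-5p between -2.20 and -1.38.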

How the data were processed

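Raw counts were deposited by the authors, 1 file per library. Per the file headers, each line gives the count of a sequence on a hairpin, its length, position and mismatches. Novoalign 3.02.12 and cutadapt 1.9.3 appear in the submitters' processing notes, their use not described, and the genome build is not given in the sources used here. Tested on the files, sequences are 16 to 40 nt long with at least 2 reads, so rare forms are lost more easily in the shallower low glucose libraries.

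Counts were summed per mature arm, joining copies of a hairpin, with the arm set by the side of the hairpin midpoint. The fit across all arms used R 4.3.3 and edgeR 4.0.16 (quasi-likelihood test, TMM, filterByExpr with a minimum count of 10, Benjamini-Hochberg at 0.05), with DESeq2 1.42.0 as an alternative; the fit was also tested on simulated data. The SE was taken from the fold change (log2) and the square root of its F statistic. Python 3.11.15, SciPy 1.17.1 and ViennaRNA 2.7.2 served for shares, exact tests and the fold. Named were all member arms, their most abundant sequences, the 4 of the listed red cell miRNAs with the highest mean CPM and the arms most like miR-451-5p; the other called red cell miRNAs were added with their values seen. The members and lists were chosen with earlier results of these data known. The list entry for miR-9 was read as miR-9a-5p, its rat name. Reads carry no molecular identifiers, so intervals cover counting error only. Replicates differed by more than counting noise (chi-square per degree of freedom 4.19 to 101), and p-values cover only the spread among these libraries, possibly a technical one.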

Additional observations from a re-analysis of the deposited data

How the results depend on the processing

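miR-451-5p and miR-486-5p kept their direction and their call under each of the 15 alternatives: DESeq2 size factors and test, upper quartile scaling, library totals, no filter, a mean CPM of 10 or more, exact alignments, thinned counts, a replicate block and leaving out each library. Adjusted p ran up to 0.00166 for miR-451-5p and 0.00658 for miR-486-5p without a library. The ratio of miR-451-5p to miR-486-5p (log2, high minus low) ran from -1.57 to -1.28 without a library. Over all arms, 122 were higher and 67 lower; thinned counts gave 68 higher of 169 tested. Without a library 79 to 117 were higher and 41 to 59 lower, the ends at 79 without high glucose replicate 2 and at 41 without low glucose replicate 2. Upper quartile scaling shifted the median of all log2 fold changes by -0.56; 91 were higher and 93 lower, and 1 and 8 of the other red cell miRNAs. Without a library these were 2, and 4 to 5. The difference in the mean 3′ end of miR-451-5p turned to -0.000526 positions with sequences of 5 or more reads and ran from -0.000735 to 0.0269 without a library; that of its 23 nt share ran from -0.535 to 0.00928 percentage points. The summed rate of miR-144-3p was 1.20-fold to 9.67-fold lower under high glucose without a library, as tried after seeing the data. The cause was not tested. With the replicate block, 105 arms were higher and 58 lower, and the log2 fold changes were -3.03 for miR-451-5p and -1.61 for miR-486-5p. The numbers were not taken as pairs, since deviations of same-numbered libraries correlated at 0.0445, -0.000655 and -0.0284. Depth limits miR-144 and the rare forms most.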
